A study of Caenorhabditis elegans with 30 samples.

Results

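The comparison described here set H3K9me3, measured by ChIP-seq, in a triple mutant (met-2 set-25;set-32) against that in a double mutant (met-2 set-25), so that the 2 groups differ by the loss of SET-32 while both lack MET-2 and SET-25. The members were the 6 H3K9me3 libraries of these strains among the 30 samples of the series, and they were matched by the bacteria on which the worms were fed. The triple mutant carried met-2(n4256), set-25(ok5021) and set-32(ok1457), and the double mutant carried the first pair of these alleles. Both *C. elegans* strains were kept at 19 °C and fed OP50 bacteria or bacteria that make gfp or oma-1 dsRNA (gfp RNAi and oma-1 RNAi), and chromatin came from whole synchronized young adults, germline and soma together. WT, set-32 and hrde-1 worms on the same feedings, and Pol II libraries of all 5 strains with gfp RNAi and oma-1 RNAi, were read for context.

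H3K9me3, trimethylation of histone H3 at lysine 9, is the hallmark of constitutive heterochromatin, and histone methyltransferases (HMTs) deposit it. MET-2 is known as an H3K9 mono- and dimethylation HMT, SET-25 as a trimethylation HMT found at heterochromatin of the nuclear periphery, and SET-32 as a SET-domain protein required in germline nuclear RNAi. In that pathway small RNAs bound to the nuclear Argonaute protein HRDE-1 direct H3K9me3 and transcriptional silencing to their targets, many of them LTR retrotransposons. GRH loci are those where H3K9me3 depends on germline nuclear RNAi, and GRTS loci are those where transcriptional silencing does, as marked in the deposited table.

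Each strain and feeding had 1 library, so a strain has 3 samples, its feedings, and the spread given is that between feedings. Triple mutant libraries held 2691000 (OP50), 7227000 (gfp RNAi) and 7056000 (oma-1 RNAi) aligned reads, against 2445000, 4408000 and 4245000 in met-2 set-25, and the median window of 1 kb held 24 to 70 reads. The met-2 set-25 libraries shared a name prefix that no triple mutant library had, and among the triple mutant libraries OP50 had a prefix of its own, so strain and prefix cannot be told apart. The same split ran through the other libraries: all those of set-32 and the triple mutant, for H3K9me3 and Pol II, had other prefixes than those of WT, hrde-1 and met-2 set-25. At set-32, 2 windows are spanned by the genotyping primers of ok1457. The first (chromosome I, 9519001 to 9520000, WS190) was lower in both marks in the triple mutant than in met-2 set-25. It held 3.72, 4.98 and 3.97 RPKM of H3K9me3 in the triple mutant on OP50, gfp RNAi and oma-1 RNAi, against 7.77, 7.49 and 8.72 RPKM in met-2 set-25. Pol II there was 5.24 and 3.83 RPKM with gfp RNAi and oma-1 RNAi, against 10.35 and 15.18 RPKM. The set-32 strain, which carries the same allele, was lower than the triple mutant in every feeding. It held 1.53, 3.54 and 0.60 RPKM of H3K9me3 and 1.56 and 3.02 RPKM of Pol II, so the direction matched the labels but the levels were unequal. The second of these windows, which lies partly outside the span, was not lower in H3K9me3 with gfp RNAi and oma-1 RNAi, at 12.18 and 10.91 RPKM in the triple mutant, against 8.85 and 6.60 RPKM in met-2 set-25.

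H3K9me3 in the regions that are richest in it in WT was lower in the triple mutant than in met-2 set-25, by an amount that was small beside the loss both strains shared. In whole worms a lower level per nucleus and fewer nuclei with the mark cannot be told apart. H3K9me3(+) windows are the top 5% by H3K9me3 in WT on OP50 (5031 windows, at least 27.19 RPKM). Their median, divided by the median of all 99742 windows of the same library, was 1.35, 1.31 and 1.29 in the triple mutant on OP50, gfp RNAi and oma-1 RNAi, against 1.45, 1.37 and 1.50 in met-2 set-25. All triple mutant libraries lay below all met-2 set-25 libraries, and both strains lay below WT, where the same ratio was 5.50, 2.72 and 3.85. The mean was 1.32 ± 0.0306 in the triple mutant, against 1.44 ± 0.0656 in met-2 set-25 (SD, n = 3 each; exact two-sided permutation test, p = 0.1, the smallest this design allows). Measured against H3K9me3(-) windows (22219 windows with 1.6 to 4.48 RPKM in WT on OP50, its percentiles 5 to 25) the gap was wider and less even. The H3K9me3(+) to H3K9me3(-) ratio was 2.26, 2.08 and 1.83 in the triple mutant, against 3.48, 2.13 and 2.85 in met-2 set-25, so that with gfp RNAi the strains hardly differed (p = 0.2, exact two-sided permutation test, n = 3 each). The H3K9me3(-) medians moved with this: 5.76, 6.09 and 6.80 RPKM in the triple mutant, against 4.09, 6.13 and 4.95 RPKM in met-2 set-25.

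GRH windows were lower in the triple mutant as well. These 215 windows, targets of germline nuclear RNAi, stood at 0.904, 0.899 and 0.934 times the genome-wide median in the triple mutant, against 1.08, 1.07 and 1.19 times in met-2 set-25 and 4.45, 2.05 and 3.22 times in WT (OP50, gfp RNAi, oma-1 RNAi). Thus GRH windows were below an average window in every triple mutant library and above it in every met-2 set-25 library. The mean was 0.912 ± 0.0189 in the triple mutant, against 1.11 ± 0.0666 in met-2 set-25 (SD, n = 3 each; exact two-sided permutation test, p = 0.1). The 191 GRTS windows, of which 25 are also GRH, stayed above the median, at 1.27, 1.24 and 1.28 times in the triple mutant, against 1.41, 1.36 and 1.50 times in met-2 set-25 (p = 0.1, exact two-sided permutation test, n = 3 each). Window by window, all 3 triple mutant libraries lay below all 3 met-2 set-25 libraries on this scale in 29.8% of GRH, 20.4% of GRTS and 18.5% of H3K9me3(+) windows, against 6.65% of all windows. The opposite order held in 0.93%, 1.05% and 1.49% of these sets and in 6.45% of all windows. Of the 22219 H3K9me3(-) windows, 1.81% were lower in this sense and 12.6% were higher.

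**Figure D1:**
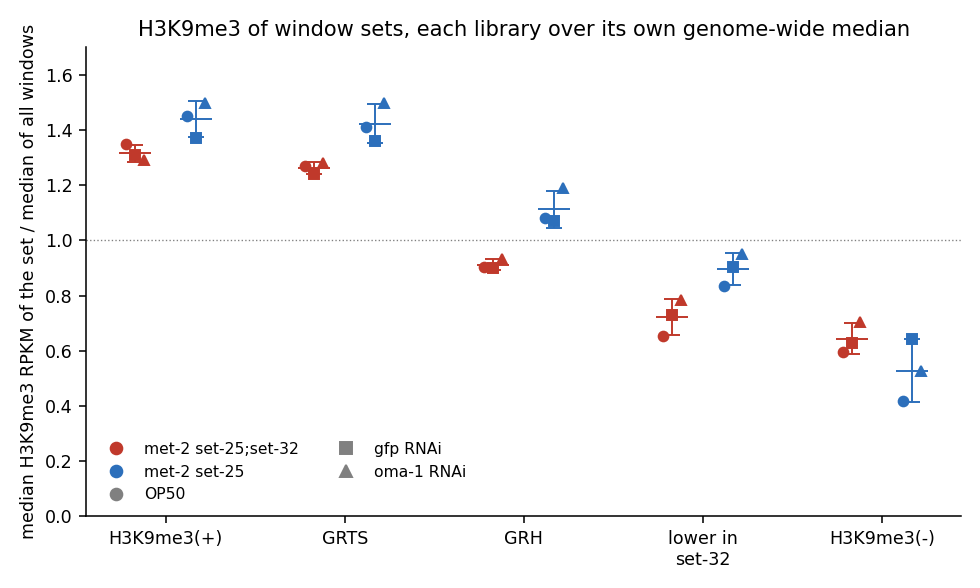
Median H3K9me3 RPKM of 5 window sets divided by the median of all windows of the same library, for met-2 set-25;set-32 (red, left) and met-2 set-25 (blue, right). Symbols are the 3 feedings, bars the mean and SD; the triple mutant libraries lie below the met-2 set-25 libraries in the first 4 sets, and for GRH windows they are between 0.899 and 0.934, against 1.07 to 1.19.

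The difference was graded along WT levels on OP50 and with oma-1 RNAi. For window tests each library was scaled to its H3K9me3(-) median, and values were compared as log2(scaled RPKM + 1). On this scale the median window was lower in the triple mutant by 0.41 on OP50 and 0.37 with oma-1 RNAi and differed by 0.02 with gfp RNAi, a shift that vanishes when libraries are scaled by depth alone (0.03, 0.01 and 0.03). The changes of window sets that follow are therefore given relative to the median of all windows, while those of runs, single windows, regions and bins are given as fitted and include the shift, which averaged -0.26. The top 1% of WT windows stood at -0.16 ± 0.11, the 1 to 5% class at -0.14 ± 0.09, the 5 to 10% class at -0.10 ± 0.09 and the 10 to 25% class at -0.08 ± 0.07 (median log2 change, mean ± SD of 3 feedings). The 75 to 100% class, the lowest in WT, stood at 0.21 ± 0.18. GRH windows stood at -0.22 ± 0.05, with -0.23, -0.17 and -0.27 on OP50, gfp RNAi and oma-1 RNAi, and GRTS windows at -0.15 ± 0.10. With gfp RNAi all the WT classes lay within 0.04 of the genome-wide median, so the graded order rested on OP50 and oma-1 RNAi, while the GRH difference was of similar size in all 3 feedings.

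The longest GRH runs illustrate the levels. The GRH locus at 5472001 to 5479000 on chromosome V, 7 windows long and 1 of the loci drawn by the study, held 10.1, 10.7 and 8.96 scaled RPKM in the triple mutant on OP50, gfp RNAi and oma-1 RNAi, against 18.4, 11 and 16.7 in met-2 set-25. In WT it held 96.5, 22.3 and 50.8 scaled RPKM, and in set-32 14.5, 17.8 and 21.3. A GRH run of 13 kb on chromosome I (from 4457001) held 8.87, 9.23 and 8.16 scaled RPKM in the triple mutant, against 16.6, 9.60 and 13.2 in met-2 set-25. All 5 of the longest GRH runs were lower in every feeding, with mean log2 changes of -0.52 to -0.55, but with gfp RNAi the change was only -0.04 to -0.23. These values include the shift of all windows, -0.26 on average and 0.02 with gfp RNAi. None of the windows in these 5 runs passed the window test.

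The GRTS locus cer8, an LTR retrotransposon at 5182001 to 5196000 on chromosome V, held 12.1, 11.7 and 10.2 scaled RPKM in the triple mutant, against 18.4, 11.5 and 16.5 in met-2 set-25 and 111, 27.5 and 56.0 in WT. The strains therefore overlapped with gfp RNAi. In the 5 longest GRTS runs the mean log2 change was -0.33 to -0.44, and with gfp RNAi it was between -0.02 and 0.11, again with the shift of all windows included. The ChIP-qPCR control region (chromosome II, 6708001 to 6710000) held 8.68, 7.18 and 6.94 scaled RPKM in the triple mutant, against 9.55, 8.52 and 8.04 in met-2 set-25.

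Few single windows passed the test. limma called 74 of 99742 windows lower and 2 higher in the triple mutant (Benjamini-Hochberg adjusted p under 0.05 and at least 2-fold), which is 0.0742% and 0.00201% of the windows tested, while 9058 and 615 had an unadjusted p under 0.05. With depth normalization alone the calls were 22 lower and 4 higher, and all 22 were among the 74. The same number, 22, with 3 higher, was called when libraries were scaled to the median of all windows. The 74 windows fell by 1.00 to 3.03 on the log2 scale. Their median was 0.823, 0.924 and 0.774 times the H3K9me3(-) median in the triple mutant (OP50, gfp RNAi, oma-1 RNAi), against 2.60, 1.71 and 2.34 times in met-2 set-25. Of the 74, 3 were H3K9me3(+), 9 were H3K9me3(-), 4 were GRH and 0 were GRTS. The 3 are 0.0596% of H3K9me3(+) windows and the 4 are 1.86% of the GRH set, beside the 0.0742% of all windows. In 34 of the 74 the level of met-2 set-25 was at or above that of WT, and 20 of these lay in the first 260 kb of X.

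Of the 74 windows, 35 lay on chromosome X and 34 of these in its first 260 kb, where 253 windows were tested. Chromosomes I to V held 7, 11, 7, 8 and 6. Without the first 260 kb of X the count was 40. Joining windows gave 9 regions of at least 3 called windows (gaps of at most 1 kb), which held 38 of the 74, and 7 of these 9 regions were at the left end of X. The count was 10 without the triple mutant on OP50, 15 without the triple mutant with oma-1 RNAi, 17 without met-2 set-25 with oma-1 RNAi and 25 without met-2 set-25 on OP50. Whichever of the 6 libraries was left out, 8 windows were called, the 3 from 15905001 to 15908000 of chromosome IV and those at 25, 33, 35, 47 and 86 kb of chromosome X.

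In some but not most of the called regions at the left end of X, H3K9me3 was called lower and Pol II higher in the triple mutant than in met-2 set-25. The region at 32001 to 37000 held 4.29, 3.65 and 3.02 scaled RPKM of H3K9me3 in the triple mutant on OP50, gfp RNAi and oma-1 RNAi, against 12.5, 9.19 and 12.9 in met-2 set-25, and the groups did not overlap. In WT it held 11.2, 5.71 and 7.73 and in set-32 7.11, 7.71 and 6.12 scaled RPKM, so met-2 set-25 lay above both there and the triple mutant below both. The change averaged -1.45 ± 0.34 (log2, SD, n = 3 feedings) and all 5 windows were called (limma adjusted p of 0.021 or less). Pol II in the same 5 kb was 10.4 and 14.2 RPKM in the triple mutant with gfp RNAi and oma-1 RNAi, against 4.44 and 3.34 RPKM in met-2 set-25, 8.57 and 9.29 RPKM in WT, and 10.5 and 12.6 RPKM in set-32. In the limma fit 4 of its windows were called higher for Pol II, as were 0.352% of all windows.

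The other called regions of the left end of X were lower in H3K9me3 too. The region at 24001 to 30000 held 4.62, 5.07 and 3.34 scaled RPKM in the triple mutant, against 16.2, 9.01 and 13.7 in met-2 set-25, a change of -1.38 ± 0.58. At 44001 to 49000 the values were 3.66, 4.19 and 3.47, against 11.7, 8.11 and 10.2. H3K9me3 there was 13.8, 6.54 and 10.5 scaled RPKM in WT and 24.6, 18.3 and 17.8 in hrde-1. In this region 3 windows were called higher for Pol II, which was 16.2 and 19.4 RPKM in the triple mutant, against 7.25 and 7.44 RPKM in met-2 set-25. Pol II was 16.1 and 20 RPKM in WT, 21.2 and 20.2 RPKM in set-32 and 5.74 and 6.19 RPKM in hrde-1. For Pol II, met-2 set-25 and hrde-1 thus lay below the triple mutant, WT and set-32. The regions at 164001 to 168000, 180001 to 184000, 193001 to 199000 and 201001 to 206000 changed by -1.20 ± 0.39, -1.17 ± 0.43, -1.23 ± 0.46 and -1.05 ± 0.22 (log2, SD, n = 3 feedings). In all of them the triple mutant libraries, at 2.79 to 4.63 scaled RPKM, lay below the met-2 set-25 libraries, at 7.17 to 12.5. For Pol II, 1 window was called higher at 164001 to 168000. The regions from 24001, 180001, 193001 and 201001 held 0 windows called for Pol II. Under every alternative setting tried, all 7 regions kept their direction in H3K9me3, with values between -1.62 and -0.80. The regions had been chosen as called and of the same direction in every feeding, so a kept direction is no separate support.

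The profile of 20-kb bins shows that the fall was not even along this end. Between 20 and 40 kb H3K9me3 was 5.74, 5.67 and 4.26 scaled RPKM in the triple mutant, against 15, 9.53 and 13.6 in met-2 set-25. Between 180 and 200 kb it was 3.91, 4.30 and 2.87, against 9.15, 7.33 and 9.45. Between 120 and 140 kb, where WT on OP50 held 88.0 scaled RPKM, the values were 8.15, 7.99 and 6.54 in the triple mutant, against 12.0, 7.86 and 9.95 in met-2 set-25, and the strains overlapped. Pol II between 20 and 40 kb was 10.6 and 10.7 RPKM in the triple mutant, against 5 and 3.76 RPKM in met-2 set-25. In the same bin Pol II was 7.32 and 9.33 RPKM in WT, 8.81 and 9.86 RPKM in set-32 and 3.52 and 1.99 RPKM in hrde-1. Between 120 and 140 kb, where H3K9me3 overlapped, it was 10.1 and 9.58 RPKM in the triple mutant, against 7.78 and 7.24 RPKM in met-2 set-25. Over the first 260 kb, 29 of 253 windows were called higher for Pol II and 0 lower, beside 0.352% and 0.139% of all windows. Of the 34 windows called lower for H3K9me3 there, 3 were also called lower in set-32 against WT. So were 14 of the 253 windows of this stretch (5.53%) and 0.470% of all windows.

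**Figure D2:**
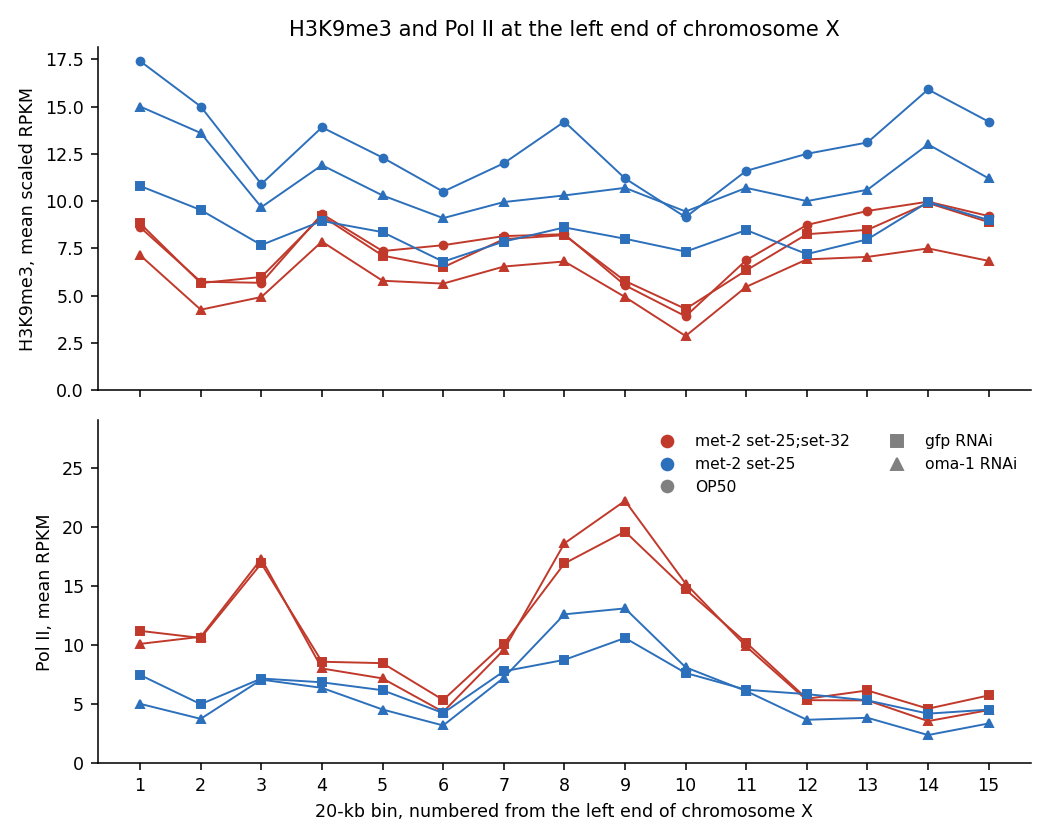
H3K9me3 (top, mean scaled RPKM) and Pol II (bottom, mean RPKM) in 20-kb bins numbered from the left end of chromosome X, for met-2 set-25;set-32 (red) and met-2 set-25 (blue), with 1 line per library. In bin 2 (20 to 40 kb) H3K9me3 was 4.26 to 5.74 in the triple mutant and 9.53 to 15 in met-2 set-25, and Pol II was 10.6 and 10.7 against 5 and 3.76.

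Among regions of at least 3 called windows the largest fall was on chromosome IV at 15905001 to 15908000, which held 1.79, 1.11 and 1.19 scaled RPKM in the triple mutant, against 12.6, 6.10 and 9.40 in met-2 set-25 (-2.21 ± 0.30, log2, SD, n = 3 feedings). The set-32 strain was low there too, at 2.20, 2.52 and 1.29 scaled RPKM, against 10.9, 6.09 and 7.40 in WT. In its last window the triple mutant held 0, 0 and 3 reads of H3K9me3 on OP50, gfp RNAi and oma-1 RNAi, against 21, 31 and 37 reads in met-2 set-25, and set-32 held 1, 2 and 0 reads. Pol II gave 0 and 1 reads in the triple mutant and 0 and 0 in set-32 in this window, against 16 and 7 in met-2 set-25 and 10 and 6 in WT. Signal of both antibodies in this window was thus near 0 in every library that carries set-32(ok1457), which are also those set apart by their name prefixes. The windows next to it, from 15908 to 15911 kb, were not low: the middle one held 28.7, 29 and 23.8 scaled RPKM in the triple mutant and 36.3, 34.2 and 35.7 in set-32, against 25.9, 13.4 and 17.2 in met-2 set-25 and 19.6, 11.8 and 16.3 in WT. Input DNA of these strains was not analysed here, and whether the amount of DNA at this place differs was not tested.

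A second window that was low in both the triple mutant and set-32 was at 86001 to 87000 on chromosome X. H3K9me3 there gave 3, 9 and 13 reads in the triple mutant (0.93, 1.18 and 1.84 RPKM), against 30, 64 and 39 reads in met-2 set-25 (12.47, 14.52 and 9.30 RPKM), and it had the smallest adjusted p of all windows (2.61e-21 in the limma fit). set-32 was low as well (2.01, 1.55 and 1.20 RPKM), while WT was at 10.4 RPKM on OP50 and at 2.43 and 2.07 RPKM with gfp RNAi and oma-1 RNAi. WT itself was thus split by feeding at this window. hrde-1 held 15.13, 13.83 and 13.73 RPKM. Pol II there was 3.53 and 1.84 RPKM in the triple mutant with gfp RNAi and oma-1 RNAi, against 5.28 and 5.37 RPKM in met-2 set-25, so it was lower as well, without passing the test (limma adjusted p = 0.659). The amount of DNA at this window was not tested either.

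Other called regions lay outside X. At 2044001 to 2048000 on chromosome II, the triple mutant held 5.22, 5.62 and 4.92 scaled RPKM, against 18, 9.20 and 13.3 in met-2 set-25 (-1.21 ± 0.48, log2, SD, n = 3 feedings). The level there was 14.5, 16.8 and 16.7 scaled RPKM in set-32, against 48.8, 14.2 and 27.1 in WT. The pair of windows at 15520001 to 15522000 on chromosome IV held 4.55, 4.5 and 5.63 scaled RPKM in the triple mutant, against 13.2, 9.30 and 12.8 in met-2 set-25 (-1.09 ± 0.21), with Pol II at 12.9 and 16.2 RPKM, against 7.12 and 5.43 RPKM. In WT the pair held 22.8, 9.28 and 16.6 scaled RPKM of H3K9me3. Both of these windows were called higher for Pol II in the triple mutant against met-2 set-25. Pol II over the pair was 13.8 and 15.1 RPKM in WT, 15.3 and 17 RPKM in set-32 and 17 and 18.6 RPKM in hrde-1. Among the strains only met-2 set-25 was thus low in Pol II there.

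The called windows at 18048001 and 18056001 on chromosome V differed between triple mutant libraries. The first held 2.37, 12.27 and 8.34 scaled RPKM in the triple mutant on OP50, gfp RNAi and oma-1 RNAi, against 15.79, 12.46 and 18.41 in met-2 set-25 and 3.74, 2.08 and 2.01 in set-32. On OP50 the triple mutant was near set-32, with gfp RNAi it was near met-2 set-25, and with oma-1 RNAi it lay between them. The triple mutant OP50 library and the H3K9me3 libraries of set-32 share a name prefix, and its part in the result was not tested.

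The pair of windows called higher rested on low values in single met-2 set-25 libraries. The window at 6971001 to 6972000 on chromosome III held 8.53, 6.12 and 6.53 scaled RPKM in the triple mutant, against 0.98, 2.72 and 4.19 in met-2 set-25 (1.25 ± 0.90, log2, SD, n = 3 feedings). The window at 7928001 to 7929000 on chromosome I held 6.94, 6.67 and 6.94, against 0.49, 4.17 and 4.66 (1.16 ± 1.09). Without met-2 set-25 on OP50 no window was called higher.

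**Figure D3:**
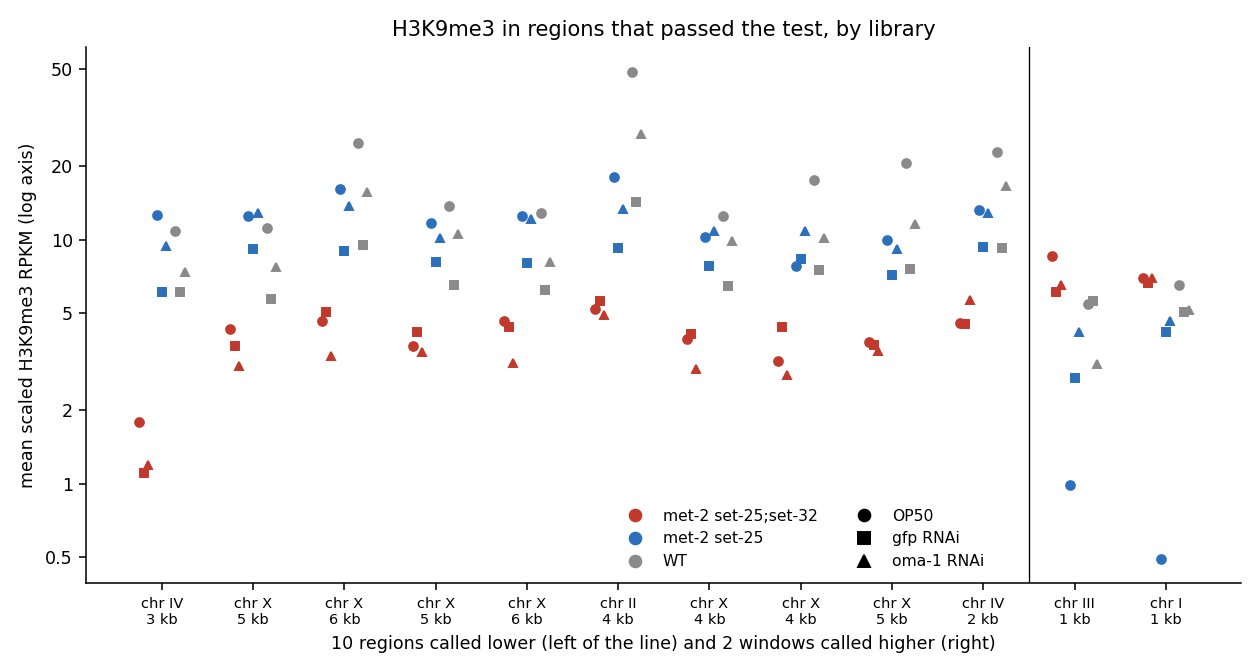
Mean scaled H3K9me3 RPKM (log axis) in the 9 regions of at least 3 windows called lower, in 1 of 2 such windows and in the 2 windows called higher, for met-2 set-25;set-32 (red), met-2 set-25 (blue) and WT (grey), with 1 symbol per feeding and the chromosome and length under each. In the 10 regions that fell, all red symbols lie below all blue symbols, and the lowest level is at the 3 kb on chromosome IV (1.11 to 1.79, against 6.10 to 12.6).

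Over longer stretches no domain passed the test. None of 2005 bins of 50 kb had an adjusted p under 0.05 in limma, 44 were lower and 0 higher at an unadjusted p under 0.05, and the median bin stood at -0.27. With depth normalization alone 2 bins were called lower. The lowest values, chosen after they were seen, were at the first 50 kb of X (-0.93 ± 0.22, SE, limma adjusted p = 0.0577) and at 150001 to 200000 of X (-0.83 ± 0.22, adjusted p = 0.0784). The first 50 kb of X held 6.54, 6.66 and 5.26 scaled RPKM in the triple mutant, against 15.1, 9.67 and 13.4 in met-2 set-25. Of the next 4 bins, 3 lay between 2350001 and 2550000 on chromosome V, at -0.54 to -0.58 (limma adjusted p = 0.0656 each), and the other, from 2000001 on chromosome II, stood at -0.56 (limma adjusted p = 0.262). In the bin from 2400001, H3K9me3 was 9.75, 8.35 and 6.75 scaled RPKM in the triple mutant, against 15.8, 10.0 and 12.9 in met-2 set-25, and WT, at 8.66, 4.18 and 6.22, was below met-2 set-25 in every feeding.

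**Figure D4:**
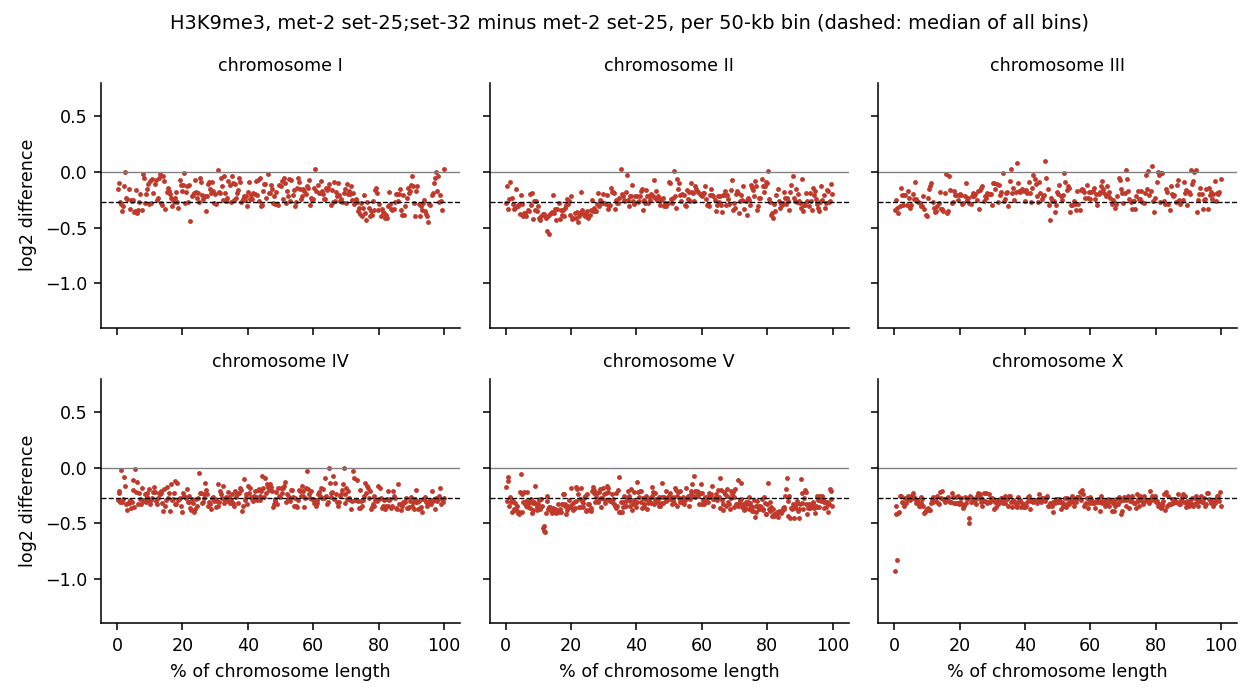
Difference in H3K9me3, met-2 set-25;set-32 minus met-2 set-25 (fitted log2 change of mean scaled RPKM + 1), in 50-kb bins along each chromosome, with position as a percentage of chromosome length. The dashed line is the median bin (-0.27), and the lowest points are the 2 bins at the left end of chromosome X (-0.93 and -0.83).

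Windows that lost H3K9me3 in the set-32 single mutant were lower again in the triple mutant. In the same limma fit 469 windows were called lower in set-32 against WT, 0.470% of all windows, and the libraries that chose them are not in the comparison read here. Of these 469, 21 were called lower in the triple mutant against met-2 set-25, which is 4.48% of that list, beside 0.0742% of all windows, and 28.4% of the 74. Their median, over the genome-wide median, was 0.654, 0.729 and 0.784 in the triple mutant on OP50, gfp RNAi and oma-1 RNAi, against 0.834, 0.905 and 0.950 in met-2 set-25 and 3.45, 1.86 and 2.90 in WT. The groups did not overlap, and the difference relative to all windows was -0.22 ± 0.05 (log2, SD, n = 3 feedings). With depth normalization alone, 3 of 459 such windows were called. The 21 include the 3 windows at 15905001 to 15908000 of chromosome IV and that at 86 kb of X, where the amount of DNA was not tested. They also include the windows at 18048001 and 18056001 of chromosome V, where the triple mutant libraries differed from each other. Windows lower in hrde-1 (649) stood at -0.19 ± 0.04. Because 201 of the 215 GRH windows are among those 649 and 124 among the 469, these lists are not separate from GRH. The set-32 and triple mutant libraries both differ from their controls in name prefix as well as in strain, and here too strain and prefix cannot be told apart.

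With libraries scaled to the H3K9me3(-) median, the change on loss of SET-32 differed between the backgrounds in few windows. The difference between the change in the met-2 set-25 background and the change in the WT background was called in 32 windows, 0.0321% of those tested, at 9 windows lower and 23 higher. Among the 23 was a stretch of 3 windows, 15587001 to 15590000 on chromosome V, which held 4.87, 4.79 and 3.30 scaled RPKM in the triple mutant, against 7.27, 4.86 and 5.87 in met-2 set-25, and 5.98, 4.5 and 6.89 in set-32 against 72.3, 15.7 and 34.8 in WT. H3K9me3 was thus already low in met-2 set-25. Of the 9 lower windows, 4 were at the left end of X, at 25, 33, 35 and 86 kb. The number of such windows depended on the scaling, with 32 lower and 287 higher by depth alone. It was 11 lower and 516 higher when libraries were scaled to the median of all windows. With H3K9me3(-) windows taken from WT with gfp RNAi it was 26 lower and 114 higher.

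Another set of windows was high in H3K9me3 in met-2 set-25 and stayed above the median of all windows in the triple mutant. They were chosen as the top 1% of the met-2 set-25 gfp RNAi library (997 windows, of which 378 are also H3K9me3(+)), so only the other feedings are given. The other met-2 set-25 libraries share its strain and name prefix and are not free of this choice. No conclusion is therefore drawn from lower values in the triple mutant. Their median was 18.21 and 17.01 RPKM in the triple mutant on OP50 and oma-1 RNAi, against 19.79 and 20.02 RPKM in met-2 set-25, 21.75 and 21.18 RPKM in WT, and 21.62 and 21.70 RPKM in set-32. The longest run, 15 kb from 13584001 on chromosome III, held 24.7 and 22.2 scaled RPKM in the triple mutant on OP50 and oma-1 RNAi, against 38.6 and 32.1 in met-2 set-25. The run of the highest level, 13 kb from 15060001 at the right end of chromosome I, held 429 and 430 scaled RPKM, against 532 and 506. Pol II was high in this run too, at 308 RPKM (gfp RNAi) and 257 RPKM (oma-1 RNAi) for the triple mutant. For met-2 set-25 it was 356 and 223 RPKM. The level of this run is therefore not particular to H3K9me3, and whether the amount of DNA there is high was not tested. Reads that align to several places are shared out among them in these values. The other 3 of the 5 longest runs held 12.5 to 19.9 scaled RPKM in the triple mutant and 21.3 to 27.6 in met-2 set-25.

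At oma-1, an oocyte gene encoding a zinc-finger protein and the target of the dsRNA, the H3K9me3 response to feeding was smaller in the triple mutant. The sequence that carries the trigger is shown because the response was read over the 2 windows it matches. It lies at 8889833 to 8890353 of chromosome IV (WS190), and bases in capitals differ from the native gene. The first 240 bases are as follows, with 8 such differences.

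oma-1 dsRNA trigger: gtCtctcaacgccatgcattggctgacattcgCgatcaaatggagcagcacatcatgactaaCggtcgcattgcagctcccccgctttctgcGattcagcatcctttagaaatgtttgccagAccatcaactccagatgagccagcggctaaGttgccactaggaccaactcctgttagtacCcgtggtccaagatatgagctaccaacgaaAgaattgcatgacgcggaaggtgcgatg

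The window that begins at 8889001 gave, in the triple mutant, 10.77 RPKM (76 reads) under oma-1 RNAi, 9.55 RPKM (69 reads) under gfp RNAi and 10.03 RPKM (27 reads) on OP50. In met-2 set-25 it gave 22.61 RPKM (96 reads) under oma-1 RNAi, 8.39 RPKM (37 reads) under gfp RNAi and 7.77 RPKM (19 reads) on OP50. The next window held 10.20, 7.06 and 8.92 RPKM in the triple mutant, against 14.60, 7.49 and 6.95 RPKM in met-2 set-25, in the same order of feedings. Only the oma-1 RNAi library of met-2 set-25 stood out. Over both windows H3K9me3 with oma-1 RNAi was 1.26 times that with gfp RNAi in the triple mutant (95% counting interval 0.993 to 1.61) and 2.34 times in met-2 set-25 (1.77 to 3.11). The ratio of these ratios, triple mutant over met-2 set-25, was 0.539 (0.372 to 0.781). Against OP50 in place of gfp RNAi it was 0.438 (0.270 to 0.709). On the WT background the loss of SET-32 gave a ratio of ratios of 0.564 (0.372 to 0.854), and 0.319 (0.188 to 0.541) against OP50. These intervals cover counting error only, and no strain and feeding was sequenced again. In the 3 windows on each side, under oma-1 RNAi the triple mutant held 6.09 to 9.64 RPKM against 3.06 to 11.07 RPKM in met-2 set-25. Pol II over the same pair of windows was 28.7 RPKM under oma-1 RNAi and 27.1 RPKM under gfp RNAi in the triple mutant, against 18 and 33.9 RPKM in met-2 set-25. In the same order it was 45.2 and 41.0 RPKM in WT, 46.0 and 48.6 RPKM in set-32 and 67.8 and 42.8 RPKM in hrde-1.

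**Figure D5:**
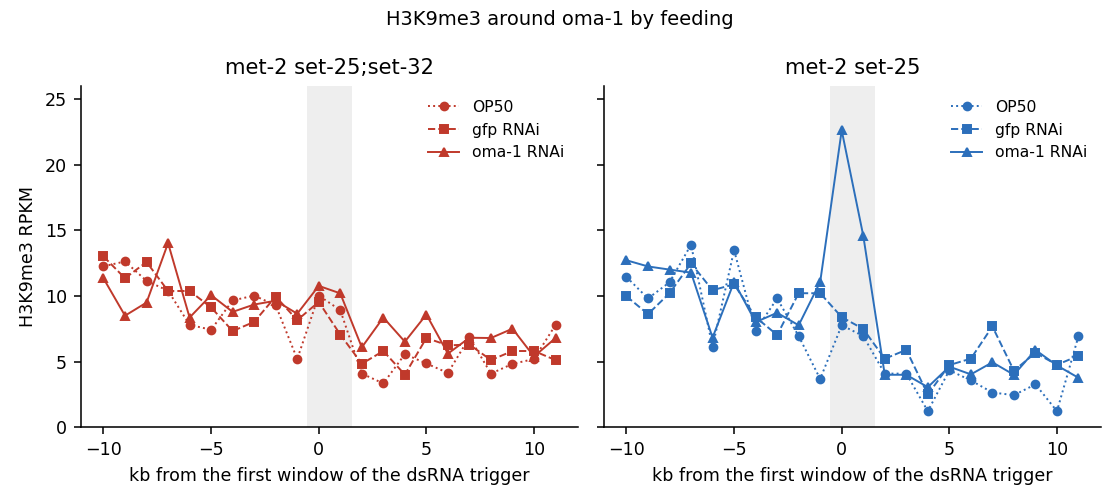
H3K9me3 RPKM (depth normalized) in 1-kb windows around oma-1 in met-2 set-25;set-32 (left) and met-2 set-25 (right), with 1 line per feeding and the 2 windows that hold the dsRNA trigger shaded. With oma-1 RNAi the first shaded window was at 10.77 in the triple mutant, against 22.61 in met-2 set-25.

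Pol II with the S2-phosphorylated CTD, a mark of elongating polymerase, was measured in 2 feedings of each strain. limma called 351 windows higher and 139 lower in the triple mutant against met-2 set-25, 0.352% and 0.139% of the windows tested, between libraries that again differ in name prefix. Of the 74 windows lower in H3K9me3, 11 were called higher for Pol II and 0 lower. Of the 11, 7 were at the left end of X and the other 4 on chromosomes I, II and IV. Of the 215 GRH windows 30 were higher and 0 lower, and of the 191 GRTS windows 5 were higher and 0 lower. These calls compare the triple mutant with met-2 set-25, not with WT. In the longest GRH run, of 13 kb on chromosome I, Pol II was 12.6 and 12.5 RPKM in the triple mutant (gfp RNAi, oma-1 RNAi). There met-2 set-25 held 8.84 and 6.7 RPKM and WT 11.7 and 14.9 RPKM. In the GRH run from 12740001 on chromosome II the triple mutant held 12 and 12 RPKM. Both met-2 set-25 (8.09 and 7.7 RPKM) and WT (8.4 and 7.5 RPKM) were lower there. The median log2 change of Pol II over GRH windows was 0.36 with gfp RNAi and 0.54 with oma-1 RNAi, beside -0.05 and 0.14 over all windows. When Pol II libraries were scaled to the median of all windows, 98 windows were called higher and 28 lower, and the higher ones included 13 GRH windows, 1 GRTS window and 3 of the 74. In the 351 windows with more Pol II, H3K9me3 stood at -0.10 ± 0.04 relative to all windows, and in the 139 with less Pol II at 0.17 ± 0.09 (log2, SD, n = 3 feedings).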

How the data were processed

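ChIP-seq reads were aligned by the authors to the WS190 (ce6) genome with Bowtie 0.12.7, with perfect alignments only and with a read of several matches divided among them, and the deposited values are RPKM in windows of 1 kb, normalized by depth alone. The step of a single read was recovered from the values (82.4% to 84.0% of windows whole within 0.1 read) and gave the depths; it was not exact enough for a test on counts. The deposited table also marks windows of the authors' own comparisons of mutants, which were not used, and columns were matched to samples through the study's library list.

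Misannotated windows (506) and 22 whose mean over the 25 ChIP libraries did not reach 3 RPKM were left out. Scaled RPKM is RPKM divided by the H3K9me3(-) median of the library and multiplied by the mean of the 15 such medians. The limma package (version 3.58.1, R 4.3.3) was applied to log2(scaled RPKM + 1) of all 15 H3K9me3 libraries, with strain and feeding as terms and with trend. Since the prior degrees of freedom came out infinite, the spread was common to windows of similar level. Pol II was fitted likewise on 10 libraries at depth normalization. The fit was tested on simulated data. Replicates were feedings, and nothing repeats a feeding. The limma p-values for H3K9me3 measure the scatter left after the strain and feeding terms, over all 5 strains and windows of similar level. They do not measure the spread of a single window, so windows with uneven feedings could be called.

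Named windows followed a rule: the loci the study places in the genome (1 is not reported here), the 10 regions with the largest falls and rises among those of at least 3 called windows (filled with shorter ones where there were under 10), the 5 longest GRH, GRTS and retained runs, and the 5 bins called with the largest changes, of which there were none. The windows at 86 kb of X, at 18048001 and 15587001 of V and the lowest bins were chosen after their values were seen. Members and lists were chosen with earlier results of these data known. Alternatives were depth scaling, scaling to all windows, other pseudocounts and filters, no feeding term, the 6 libraries alone, no trend, other WT windows, no fold limit, and each library left out. Figures were drawn with matplotlib 3.10.9.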

Additional observations from a re-analysis of the deposited data

Results flagged for a closer look

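The change on loss of SET-32 differed between the met-2 set-25 and WT backgrounds in 9 windows that were lower and 23 that were higher in the first (limma, adjusted p under 0.05 and at least 2-fold). Among the 9 were 4 windows at the left end of X, with differences of -1.70 at 25 kb, -1.60 at 33 kb, -1.86 at 35 kb and -1.59 at 86 kb (log2; limma adjusted p = 0.0162, 0.0174, 0.000594 and 0.0272). Over the oma-1 trigger the response to feeding differed between the triple mutant and met-2 set-25 beyond counting error, by a ratio of ratios of 0.539 for H3K9me3 and 1.99 for Pol II (95% counting interval 1.56 to 2.55), with 1 library behind each value.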

How the results depend on the processing

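The count of 74 windows lower and 2 higher fell to 22 and 4 by depth alone, to 22 lower when scaled to all windows and to 22 and 0 with a pseudocount of 3, was 28 lower without the OP50 feeding, and held 5 higher with a pseudocount of 0.5 and 4 with the 6 libraries alone. Leaving out 1 library gave 10 to 91 lower and 0 to 8 higher. Without the first 260 kb of X, an alternative chosen after seeing the data, 40 were lower. With no replicate block (no feeding term) 47 were lower, all of them among the 74. The feedings did not pair the libraries: deviations of the 2 strains correlated at 0.15 (OP50), -0.01 (gfp RNAi) and 0.02 (oma-1 RNAi). Bins of 50 kb called lower were 0, but 2 by depth, 1 scaled to all windows, 7 with WT gfp RNAi windows, 1 and 4 with pseudocounts of 0.5 and 3, 3 with the 6 libraries, and 0 to 7 with 1 library left out. The median change over H3K9me3(+) windows was -0.40, but -0.11 by depth and -0.12 scaled to all windows, and between -0.59 and -0.30 with 1 library left out. Windows that differed between backgrounds numbered 32, against 319 by depth and 18 without OP50. Scaled to all windows, 11 of them were lower and 516 higher, and with WT gfp RNAi windows 26 and 114. Pol II calls numbered 490, against 126 when scaled. All 12 named regions kept their direction, which is no separate support, since they were chosen for the same direction in every feeding. The list marked in the deposited table was not run, because it holds the authors' own comparisons. A median of 24 to 26 reads per window on OP50 limits single windows most there.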
